A study of Mus musculus with 94 samples.

Results

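Class I major histocompatibility complex (MHC) presentation was described in primary perivascular adipose-derived stem cells (PV-ADSCs) through 6 genes, *B2m*, *H2-K1*, *H2-D1*, *Tap1*, *Tap2* and *Tapbp*. The genes were chosen by name, and all 6 had a row among the 16069 genes of the deposited table. The cells came from the peri-aorta adipose tissue of c57/bl mice aged 8 weeks, were released with collagenase I without culture, and were sorted as live nucleated (Syto16+/DAPI-) CD144-/CD45-/CD29+/Sca1+ single cells. A full-length SMARTseq v4 library was made from each cell, and 85 of the 94 cells of the series were in the table. The study has a single condition, and no animal is named for a cell, so the cells were 1 sample, no test between cells was possible, and SDs and exact 95% Clopper-Pearson intervals cover the spread over cells and counting error only. By the rule of the selection, cells with a normalized count of *Dcn* (decorin, a matrix proteoglycan of fibroblasts) of at least 1000 were called stromal (58 cells) and the rest other (27 cells). The cells on either side of that limit held 269 and 239 below it, and 6521 and 11185 above it.

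Class I molecules display peptides from inside the cell to CD8+ T cells and are carried by nearly all nucleated cells. A polymorphic heavy chain, encoded in the C57BL/6 mouse by *H2-K1* and *H2-D1*, pairs with the invariant light chain β2-microglobulin (*B2m*). Peptides cut by the proteasome are pumped into the endoplasmic reticulum by the transporter of *Tap1* and *Tap2*, and tapasin (*Tapbp*) holds the empty heavy chain at that transporter until a peptide fits. Interferons raise most genes of the pathway, and the transactivator *Nlrc5* acts at the promoters of class I genes.

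The promoters of the light chain and of a heavy chain are shown here for the response letters in them. These are letters of the cyclic AMP response and, in *B2m*, of the interferon core that was searched. The members are set beside the interferon genes further on. Sequences are from RefSeq (GRCm38.p6), run 5′ to 3′, and hold the 250 bases before the listed transcript start. Capitals mark matches to GAAANNGAA (the core of the interferon-stimulated response element), ATTGG (the inverted CCAAT box) or TGACG (part of a cyclic AMP response element), each searched on both strands. The *B2m* window is chr2:122147437-122147686 on the plus strand, and that of *H2-K1* is chr17:34000348-34000597 on the minus strand, before the more upstream of 2 listed starts.
B2m: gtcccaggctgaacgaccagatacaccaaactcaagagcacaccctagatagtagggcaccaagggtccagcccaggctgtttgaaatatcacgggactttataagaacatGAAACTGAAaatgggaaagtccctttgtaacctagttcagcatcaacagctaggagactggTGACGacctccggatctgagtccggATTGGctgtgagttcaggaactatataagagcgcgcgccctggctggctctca
H2-K1: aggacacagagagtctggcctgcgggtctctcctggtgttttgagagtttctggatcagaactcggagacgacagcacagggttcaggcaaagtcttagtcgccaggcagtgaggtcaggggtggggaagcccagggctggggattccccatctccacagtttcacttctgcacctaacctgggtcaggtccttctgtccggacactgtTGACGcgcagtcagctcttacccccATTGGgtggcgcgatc

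*B2m* held all 3 motifs, the interferon core at -139 to -131 from the start, TGACG at -78 to -74 and ATTGG at -53 to -49. *H2-K1* held TGACG at -41 to -37 and ATTGG at -16 to -12, and no GAAANNGAA. Its window and that of *H2-D1* did hold the letters tttcacttc. Read on the other strand, these carry the GAAA and GAA of the pattern in the opposite order. That order was not searched, so the matches and shares given cover GAAANNGAA only. They do not show that the heavy chain windows lack letters of the interferon response. Of the 5 members with an entry in the promoter table, 5 held ATTGG, 4 held TGACG and 1 held GAAANNGAA, and the gamma-activated letters TTCNNNGAA were found in 0. Over all 32851 promoter windows of the same length, the shares were 33.8%, 17.8%, 7.13% and 7.02%, respectively. The windows of *H2-D1*, *Tap1* and *Tapbp* lie within annotated exons and are given by their matches only. In *H2-D1*, TGACG lay at -101 to -97 and ATTGG at -76 to -72 and at -53 to -49. The *H2-K1* and *H2-D1* windows shared an unbroken run of 47 identical bases, from -141 to -95 in *H2-K1* and from -201 to -155 in *H2-D1*. *Tap1* starts 226 bases from *Psmb9*, an immunoproteasome subunit read from the opposite strand. *Tap2* was not matched. A match of letters is a description and not a binding site.

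The table holds normalized counts in which 13 groups of genes had each been multiplied by a factor of their own in every cell, and the factors ranged from 0.0157 to 94.5. Whole reads were therefore recovered by division, and both scales are given. Recovered reads per cell had a median of 2847986 (range, 1146945–4776510). Stromal cells held a median of 2813 genes (range, 850–4148) and other cells 1416 (range, 285–2278), at similar median read totals of 2963854 and 2714449. Of 11 fibroblast markers other than *Dcn*, at least 3 were found at 100 or more reads in 57 of 58 stromal and 0 of 27 other cells, and of 15 endothelial markers in 1 of 58 and 24 of 27 cells, even though CD144 (*Cdh5*) was gated out. In the other cells, *Dcn* itself was above 0 in 27 of 27 cells with a median of 14 reads, and 100 reads was therefore used as a second limit of detection that 2 of them passed. *Cdh5* was above 0 in 7 of 58 stromal cells and at 100 reads in 0. The stromal cell with the lowest *Dcn* (6521, or 69 reads) had the fewest reads of all, the largest deposited sum (6109117), 850 genes and none of the 11 other fibroblast markers at 100 reads. Its removal changed the side of no member difference. Of 14 leukocyte markers, 3 had a row, and 4 of 85 cells, all of them stromal, held at least 1 of these at 100 reads.

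*B2m* was the most widely detected member, in 56 of 58 stromal cells (96.6%; interval, 88.1–99.6%) and 23 of 27 other cells (85.2%; interval, 66.3–95.8%). In stromal cells its normalized count had a median of 5287 with a highest value of 26422, and in other cells a median of 17507 with a highest value of 54053. The lowest value was 0 in both classes. On the scale of log2(normalized count + 1), on which every mean below is given, the mean was 12.03±2.51 in stromal and 11.96±5.35 in other cells, a stromal-minus-other difference of 0.06. The means were close although the medians were not, because the other cells fell into cells with high *B2m* and a few at or near 0.

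Among the other cells, those with little *B2m* were the ones in which the fewest genes of any kind were found. The 5 other cells under 100 *B2m* reads held between 285 and 869 genes, and the 4 of them at 0 had a median of 391 genes. Those with 285, 377 and 405 genes held 0, 1 and 0 of the 15 endothelial markers at 100 reads, so they were not marked as endothelial. Those with 854 and 869 genes held 6 and 9. All 22 other cells with at least 1000 genes held *B2m* at 100 reads or more, as did 55 of 57 such stromal cells. The 2 stromal cells at 0 held 1182 and 2178 genes, and a stromal cell with 850 genes held 232 *B2m* reads. Without the cells under 1000 genes, the difference of *B2m* was -2.30 and that of *H2-D1* -2.36, so that 2 members in place of 0 lay past a limit of 1 in favor of the other cells, compared with 5.22% of all genes (3.69% when all cells were kept). The part of the number of genes found in this difference was not tested.

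**Figure D1:**
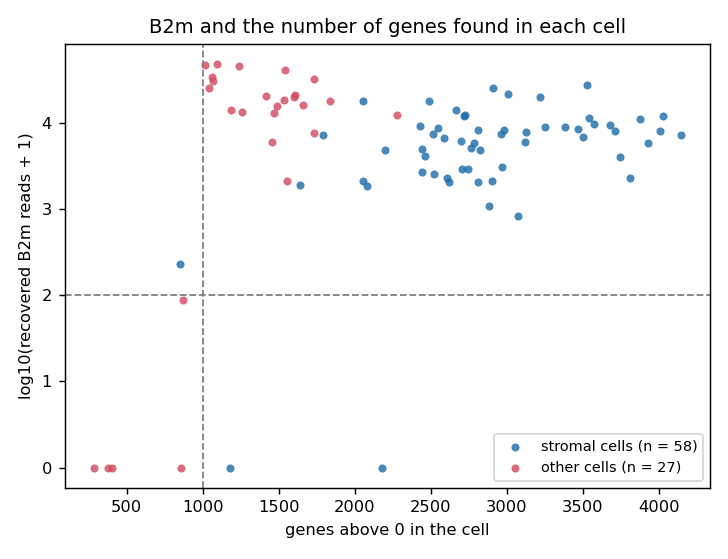
Recovered *B2m* reads (log10 of reads + 1) of each cell against the number of genes above 0 in it, with stromal cells in blue and other cells in red and dashed lines at 1000 genes and 100 reads. The 5 other cells under 100 reads all lie left of 1000 genes, and all 22 other cells right of it lie above 100 reads.

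*H2-D1*, the heavy chain of the D locus, was above 0 in 44 of 58 stromal cells (75.9%; interval, 62.8–86.1%) and 19 of 27 other cells (70.4%; interval, 49.8–86.2%). Its normalized count had a median of 1476 and a highest value of 10970 in stromal cells, compared with 4239 and 41798 in other cells. The mean was 7.81±5.16 in stromal and 8.48±6.40 in other cells, a difference of -0.67 that was well inside either SD. The 2 classes overlapped over the whole range below 10970, and cells at 0 were found in both.

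*H2-K1*, the heavy chain of the K locus, was above 0 in 37 of 58 stromal cells (63.8%; interval, 50.1–76%) and 16 of 27 other cells (59.3%; interval, 38.8–77.6%). Many of these held few reads, since 29 stromal and 11 other cells reached 100 reads. The median count was 79.9 in stromal cells (highest, 18045) and 6.17 in other cells (highest, 11679). The difference of the means was 0.51 (5.68±5.0 and 5.17±5.38). Between 1 and 99 reads lay 13 cells for *H2-K1*, compared with 7 for *H2-D1* and 1 for *B2m*.

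The peptide transporter was seldom detected. *Tap1* was above 0 in 2 cells, a stromal cell with 415 reads and an other cell with 2863 reads. *Tap2* was above 0 in 8 of 58 stromal cells (13.8%; interval, 6.15–25.4%) and 4 of 27 other cells (14.8%; interval, 4.19–33.7%), and its mean differed by 0.07. The highest *Tap2* count, 21088 in a stromal cell, stood for 6080 reads, and the highest number of reads was 6215, in an other cell. A single other cell held both subunits, with 2863 *Tap1* and 336 *Tap2* reads. All 13 cells with a read of either subunit held *B2m* at 100 reads or more, beside 78 of all 85 cells.

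*Tapbp* was the member with the largest difference between the classes, 2.45 in favor of stromal cells (3.30±4.24 and 0.84±2.68). It was above 0 in 26 of 58 stromal cells (44.8%; interval, 31.7–58.5%) and 3 of 27 other cells (11.1%; interval, 2.35–29.2%), and at 100 reads in 14 and 2. The highest count of 21774, in a stromal cell, stood for 808 reads, and the highest read number was 2990. Over all 85 cells, *Tapbp* was higher where more genes were found (Spearman rho, 0.46), and the 14 stromal cells with 100 reads held a median of 3318 genes, compared with 2734 in the other 44. The part of the number of genes in this difference was not tested.

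**Figure D2:**
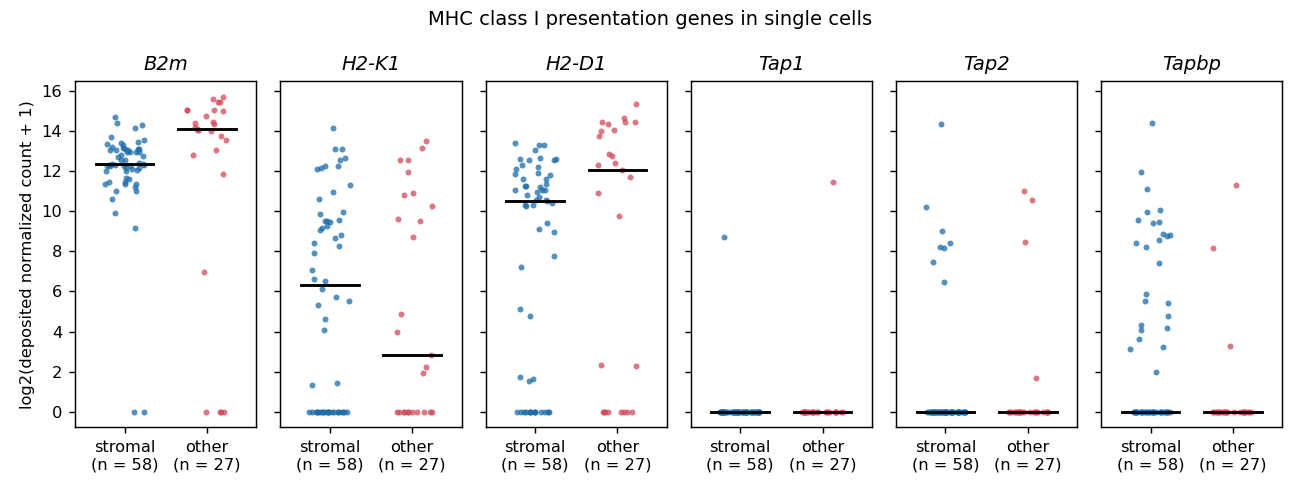
Normalized counts of the 6 members, as log2(count + 1), with 1 point per cell, stromal cells (n=58) in blue and other cells (n=27) in red, and a black line at the median of each class. *B2m* and *H2-D1* reach higher in other cells, *Tap1* and *Tap2* lie at 0 in most cells of both classes, and *Tapbp* is above 0 in 26 stromal and 3 other cells.

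A difference of at least 1 in favor of stromal cells was found in 60.3% of the 6127 genes above 0 in at least 10 cells, and one in favor of other cells in 3.69%. The median difference of all genes was 1.32, and 88.4% were above 0. Of the 5 members in that set, 1 (*Tapbp*) passed the limit toward stromal cells and 0 toward other cells. In the order from the most other-sided to the most stromal-sided gene, *H2-D1* was above 5.03% of all genes, *B2m* above 12.8%, *Tap2* above 13%, *H2-K1* above 25% and *Tapbp* above 77.6%. *Tap1*, found in 2 cells, was not in the set.

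Among cells that held a gene at all, the other cells held more of *B2m* and of both heavy chains, a measure chosen after the values had been seen. In cells with at least 100 reads, the median *B2m* count was 21275 in 22 other cells and 5422 in 56 stromal cells, 3.92-fold higher in the former. For *H2-D1*, the medians were 13799 in 17 other and 2503 in 39 stromal cells, a ratio of 5.51. For *H2-K1*, they were 1905 in 11 other and 749 in 29 stromal cells, a ratio of 2.54. A higher level in other cells was common, since 87.1% of the 976 genes with at least 5 such cells in each class had a ratio above 1, and the median ratio was 2.02. The ratio of *H2-D1* was above that of 93.3% of those genes, that of *B2m* above 84.6% and that of *H2-K1* above 65.4%. The ranges from the 25th to the 75th percentile did not overlap for *B2m* (4108–8783 in stromal and 16814–34305 in other cells) or for *H2-D1* (1476–4936 and 5076–22252), and overlapped for *H2-K1* (451–4637 and 1008–6063). On CPM (recovered reads scaled to an equal total in each cell), the ratios were 3.48, 5.86 and 5.24 for *B2m*, *H2-D1* and *H2-K1*, beside a median of 2.10 over all 976 genes. As fewer genes shared a similar number of reads in other cells, RNA per cell cannot be told apart from a share of the reads.

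**Figure D3:**
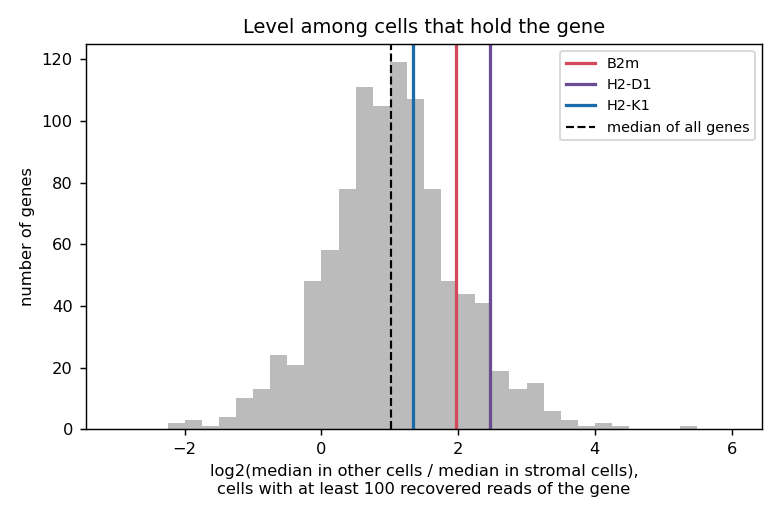
Distribution over 976 genes of log2 of the median in other cells over the median in stromal cells, each among cells with at least 100 recovered reads of that gene, with lines at *B2m*, *H2-D1*, *H2-K1* and the median of all genes (dashed). The gray bars count genes, most of which lie right of 0, and all 3 members lie right of the dashed line.

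Per length of transcript, the light chain was far above the heavy chains. Median counts per kilobase in stromal cells were 6148 for *B2m*, 702 for *H2-D1* and 49.3 for *H2-K1*, and in other cells 20357, 2017 and 3.81. Medians of *Tapbp*, *Tap2* and *Tap1* were 0 in both classes. By the mean of log2(count per kilobase + 1) over all cells, the order was *B2m* (12.21±3.68), *H2-D1* (7.25±5.13), *H2-K1* (5.10±4.80), *Tapbp* (2.02±3.34), *Tap2* (0.98±2.65) and *Tap1* (0.20±1.32). By the linear mean of CPM per kilobase, *Tap2* (27.2) lay above *Tapbp* (23.5), and the other genes kept their places. Each step in the order of log2 means was smaller than the larger SD of the 2 genes over cells. That SD includes cells at 0 and does not compare 2 genes within a cell. Within the 78 cells with at least 100 *B2m* reads, *H2-K1* and *H2-D1* together came to a median of 0.147 of *B2m* per kilobase, 0.168 in stromal and 0.128 in other cells. The heavy chains together exceeded *B2m* in 6 of these cells, 3 of each class. These ratios use normalized counts, in which the 3 genes carry different factors, so no order of the classes is given. Mean CPM per kilobase was 2844 for *B2m*, 363 for *H2-D1* and 303 for *H2-K1* in stromal cells. In other cells it was 8115, 1591 and 518.

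The 2 heavy chains were often found one without the other. At 100 reads, 30 of 85 cells held both, 26 held *H2-D1* only, 10 held *H2-K1* only and 19 held neither. In stromal cells these numbers were 21, 18, 8 and 11, and in other cells 9, 8, 2 and 8. Each of the 30 cells with both heavy chains also held *B2m* at 100 reads, beside 78 of all 85 cells. *B2m* without either heavy chain was found in 14 cells (10 stromal and 4 other cells), a heavy chain without *B2m* in 2, and none of the 3 genes in 5. Transcripts of a single cell that were not captured cannot be told apart from transcripts that were absent.

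**Figure D4:**
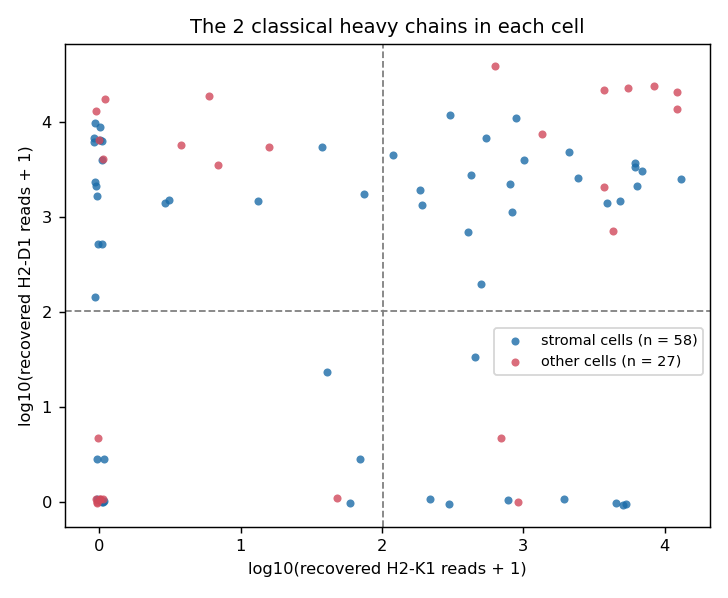
Recovered reads of *H2-K1* (horizontal axis) and *H2-D1* (vertical axis) in each of 85 cells, as log10(reads + 1) with a small random shift, stromal cells in blue and other cells in red, with dashed lines at 100 reads. The upper right field (both genes) holds 30 cells, the upper left (*H2-D1* only) 26, the lower right (*H2-K1* only) 10 and the lower left (neither) 19, and both classes lie in each field.

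The share of *H2-K1* in the sum of both heavy chains per kilobase of transcript tended to the extremes. Of the 66 cells with either gene at 100 reads, 30 had a share under 10%, 11 a share over 90% and 25 a share between. The median was 21.3% in 47 stromal cells and 8.70% in 19 other cells, with SDs of 40.2 and 34.9 percentage points. On recovered reads the order of the classes turned, with 14.5% in stromal and 17.9% in other cells, so no order is given. The transcript length used for *H2-D1* (2102 bases, compared with 1619 for *H2-K1*) includes an upstream stretch and raises the share, whereas the coding lengths were close, at 1086 and 1107 bases. By coding length the medians were 17% and 6.71%.

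A median of 3 members was above 0 in stromal cells and in other cells. The highest number was 5, in 5 stromal and 2 other cells, and 0 of 85 cells held all 6. In the 58 stromal cells, the rank correlation over cells was 0.47 between *H2-D1* and *Tapbp*, 0.29 between *B2m* and *H2-D1* and 0.08 between *H2-K1* and *H2-D1*. In the 27 other cells, the value for *H2-K1* and *H2-D1* was 0.52, and 0.31 among the 14 with both above 0. The points in stromal cells share depth, as *H2-D1* itself had a rho of 0.32 with the number of genes and 0.33 with the total reads. Among stromal cells with both genes above 0, the values were 0.10 (23 cells), 0.15 (43 cells) and 0.26 (29 cells). Most of the first relation thus lay in whether the genes were found and not in their level.

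The genes most like each member over stromal cells were sought among 1663 or 1664 genes above 0 in at least 50% of them. For *H2-D1*, they were *H2-Q1* (rho, 0.74), *H2-Q6* (0.62) and *H2-Q7* (0.61), all class I genes of the Q region. For *H2-K1*, they were *Nfkbia* (0.45), the inhibitor of NF-κB, *Ppp1r15a* (0.41), a stress-induced phosphatase subunit, and *Ier5* (0.40), an immediate early response gene. *B2m* was most like *Hist1h2bc* (0.49), a histone gene, *Clk1* (0.44), a splicing kinase, and *Ypel3* (0.43). For *Tapbp*, they were *H2-D1* (0.47), *Efemp1* (0.46), a matrix glycoprotein, and *Fcgrt* (0.41), the heavy chain of the neonatal Fc receptor. Among cells with both genes above 0, the values stayed at 0.58, 0.52 and 0.46 for the 3 Q genes with *H2-D1*, but fell to 0.03 for *Hist1h2bc*, 0.20 for *Clk1*, 0.12 for *Nfkbia*, 0.27 for *Ppp1r15a*, 0.13 for *Ier5* and 0.05 for *Fcgrt*, with 0.37 for *Ypel3* and 0.42 for *Efemp1*. For *H2-K1*, *H2-D1* ranked 454th in this order.

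The Q region genes need caution, because their sequences are close to those of the classical heavy chains and the handling of reads that fit several genes is not given in the sources used here. Of all 85 cells, 66 held *H2-K1* or *H2-D1* at 100 reads, the share to set beside each overlap. *H2-Q1* was above 0 in 48 cells, 46 of which held *H2-K1* or *H2-D1* at 100 reads, and it was between 1 and 99 reads in 28. *H2-Q6* was above 0 in 54 cells, 48 of them with a classical heavy chain, and *H2-Q7* in 50 cells, 48 of them with one. Their median reads where found were 62, 20 and 26.5. *H2-T23*, which encodes the nonclassical Qa-1 molecule, was above 0 in 59 cells, 53 of them with *H2-K1* or *H2-D1* at 100 reads, and *H2-T22* in 36 cells, 31 of them with one of these. Where above 0, their median reads were 474 and 289.5. The levels of *H2-D1*, *H2-K1* and the Q genes are uncertain to the extent that they share reads, and whether they do was not tested.

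Of the 69 tested genes in all pathway lists, 35 were higher by at least 1 in stromal cells and 9 in other cells, beside 60.3% and 3.69% of all genes, and the lists differed among themselves. Of the peptide loading and trimming genes, 7 were above 0 in at least 10 cells and all 7 were higher by at least 1 in stromal cells, beside 60.3% of all genes, with a median difference of 6.18. *Canx* (calnexin), which binds new heavy chains, differed by 7.26 and was above 0 in 54 stromal and 7 other cells. *Calr* (calreticulin) and *Pdia3* (ERp57), partners of tapasin in the loading complex, differed by 6.68 and 6.18. *Hspa5* (BiP), a chaperone for many proteins, differed by 5.26, *Sec61b* and *Sec61a1* of the translocation channel by 6.42 and 1.89, and the trimming enzyme *Erap1*, in 10 stromal and 1 other cell, by 1.09. All of these but *Erap1* also serve secreted proteins in general.

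The subunits of the constitutive proteasome were higher in stromal cells in 14 of 14 cases, beside 60.3% of all genes, with a median difference of 2.34 (*Psmb3*, 3.42; *Psmb1*, 3.36; *Psma1*, 3.24). The immunoproteasome list, in which cytokine-induced subunits replace constitutive ones, did not show this. Of 5 genes, 0 were higher in stromal cells, 1 was higher in other cells and 4 lay within the limit, with a median of 0.08. *Psmb8*, an induced catalytic subunit, was above 0 in 11 of 58 stromal and 10 of 27 other cells (difference, -2.56). *Psmb9* (0.08), *Psmb10* (-0.52) and the activator subunits *Psme1* (0.33) and *Psme2* (0.85) stayed inside the limit. Of the 11 cells with *Tap2* at 100 reads, 4 held *Psmb8* at that level, beside 20 of all 85 cells. Of the 2 with *Tap1*, 0 held *Psmb9*, the neighbor that starts 226 bases away, beside 11 of all 85 cells. With 2 cells, it cannot be told whether *Tap1* and *Psmb9* are found together.

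*B2m* carries the interferon core letters printed in its promoter, but a link of those letters to expression was not tested. Interferon-stimulated genes were read as a list of their own, and more of them were higher in other than in stromal cells. Of 19 tested, 7 were higher in other cells, beside 3.69% of all genes, and 3 in stromal cells, beside 60.3%, and the median difference was -0.15, compared with 1.32 over all genes. The chemokine *Cxcl9*, induced by interferon-γ, was above 0 in 13 of 27 other and 4 of 58 stromal cells (difference, -4.92). *Ly6e* (-2.92), *Iigp1* (-2.59), *Rtp4* (-2.31), *Gbp7* (-1.76) and *Bst2* (-1.62) were also higher in other cells, whereas *Ifi27* (3.31) was higher in stromal cells. *Ly6e* and *Bst2* encode membrane proteins with antiviral roles, and *Iigp1* and *Gbp7* encode interferon-induced GTPases. The 12 other cells with *Cxcl9* at 100 reads had a median of 5619 *H2-D1* reads, compared with 3394 in the 15 without, and medians of 20586 and 7528 *B2m* reads, beside 1444 and 1093 genes per cell. *H2-K1* did not follow this order, with medians of 0 and 43 reads. With *Psmb8*, of the immunoproteasome list, in place of *Cxcl9*, the order of *H2-D1* was the opposite. Its medians were 2909 reads in the 10 cells with *Psmb8* and 4042 in the 17 without, and *H2-K1* had medians of 517 and 3 reads. For *Bst2*, *H2-D1* medians were 14041.5 reads in 12 cells with it and 2014 in 15 without, beside 1251.5 and 1456 genes. For *Ly6e*, they were 5392 in 23 cells and 0 in 4, beside 1471 and 391 genes. *H2-K1* medians were 4 and 15 reads by *Bst2*, and 43 and 0 by *Ly6e*. *B2m* medians were higher in the cells with each of these genes. They were 18096.5 and 15718 reads by *Psmb8*, 25345 and 12193 by *Bst2*, and 18234 and 0 by *Ly6e*.

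Of the receptors and transcription factors of interferon signaling, 14 were tested and 7 were higher in stromal cells, a share below the 60.3% of all genes (median difference, 0.99). The kinase *Jak1* (3.66), the receptor subunits *Ifngr1* (1.71), *Ifnar2* (1.70) and *Ifngr2* (1.54), and *Irf2* (2.05) were higher in stromal cells. *Nlrc5* was found in 1 cell, an other cell with 1307 reads that also held 6215 *Tap2* reads. *Tap2* was above 0 in 12 of all 85 cells. With 1 cell, it cannot be told whether *Nlrc5* and *Tap2* are found together.

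**Figure D5:**
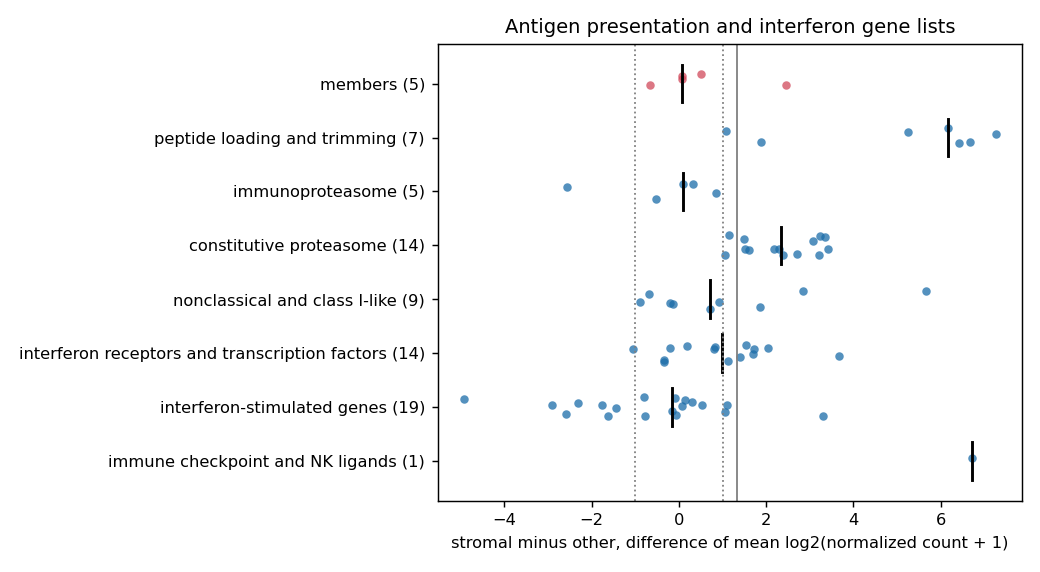
Stromal-minus-other difference of mean log2(count + 1) for the tested genes of each list, with 1 point per gene, the number of genes in brackets, a black line at each list's median, dotted lines at -1 and 1 and a gray line at the median of all genes (1.32). The points for members, immunoproteasome and interferon-stimulated genes lie mostly left of the gray line, and those for loading and constitutive proteasome genes mostly right of it. The medians for nonclassical and class I-like genes (0.72) and for interferon receptors and transcription factors (0.99) also lie left of the gray line.

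Of 9 tested nonclassical and class I-like genes, 3 were higher in stromal cells, beside 60.3% of all genes, and 0 in other cells, beside 3.69% (median, 0.72). They were *Fcgrt* (5.66), *Procr* (2.85), the endothelial protein C receptor, and *H2-T22* (1.85). *Procr* was at 100 reads in 18 stromal cells and 1 other cell, although the other cells carried the endothelial markers. Of the immune checkpoint and NK ligand list, the single gene tested, *Cd47*, a signal that restrains phagocytes, differed by 6.71. Class II genes, which serve professional antigen-presenting cells, were above 0 in 4 stromal cells and 1 other cell.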

How the data were processed

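RNA of single PV-ADSCs was sequenced as 1 library per cell. Per the labels and the methods, the authors aligned reads to mm9 with HISAT2 2.0.5, handled them with SAMtools 1.4 and StringTie 1.3.3, and normalized with scater. The program that counted reads is not given in the sources used here. The authors deposited a single table of normalized read counts, a signal that is never negative. The methods state a default scaling, whereas the factors in this table differ between groups of genes within a cell, which that statement does not describe. The members and gene lists were chosen with earlier results of these data known.

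Values were used as log2(value + 1), and genes above 0 in at least 10 cells were compared by the stromal-minus-other difference of means, with a limit of 1. Reads were recovered by dividing each value by the factor of its group of genes in that cell. Of 144272 values above 0 in these groups, 6 were not whole within a relative tolerance of 2e-09 and were rounded. In 20 pairs of a cell and a group, fewer than 10 values fixed the factor. The recovery and the differences were tested on data simulated from the recovered reads and factors. Such a test cannot show that the reads recovered from the deposited table are right. Up to 6 genes of each list are named, those with the largest absolute differences, beside the members, and *Erap1*, *Bst2* and *Nlrc5* were named after their values had been seen. A gene of the interferon lists is not reported here. Transcript lengths are from GENCODE (GRCm38), which is not the build of the reads. Python 3.11.15, pandas 2.3.3 and scipy 1.17.1 were used.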

Additional observations from a re-analysis of the deposited data

How the results depend on the processing

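Of 332 values recomputed under other settings, 309 were counted as kept. These kept their side of the limit or, without one, moved by less than their spread or interval. Counts and ratios could move by up to 1.5 times and rank correlations by less than 0.1. Differences in shares of cells had only to keep their sign. The spread of the heavy chain shares was wide, so their turned order of the classes counted as kept. *Tapbp* was the only member past the limit of 1 in the main setting, and its sign did not change. The number of members found in at least 50% of stromal cells was 3 under each of the 8 settings tried, including 100 recovered reads and thinning of every cell to 1146945 reads, and in other cells it was 3 except at limits of 10 and 100 reads (2). The difference of *Tapbp* stayed past 1 in each log2 setting, and a single member passed toward stromal cells under each setting of that count. Differences near 0 changed sign in 6 of 12 settings for *B2m*, 6 for *Tap2* and 2 for *H2-K1*. Toward other cells the number was 0, but *H2-D1* (-1.26) passed with other cells limited to those with at least 3 endothelial markers (1 member), and *B2m* (-2.30) and *H2-D1* (-2.36) passed without cells under 1000 genes (2 members). On the log2 ratio of linear class means, *B2m* (-1.59), *H2-D1* (-1.91), *Tap1* (-3.89) and *Tap2* (1.5) passed. *Tap1* was found in 2 cells, and a stromal cell held the highest *Tap2* count of 21088. By shares of cells above 0, *H2-D1* differed by 5.49 and *Tap2* by -1.02 percentage points, the opposite sign of their means. The ratio of *H2-K1* among cells with at least 100 reads was 4.26 on recovered reads and 5.24 on CPM, compared with 2.54. Where not stated, the cause was not tested. On CPM, 1 in place of 3 interferon-stimulated genes was higher in stromal cells. The pseudocount moved the share of all genes past 1 toward stromal cells from 60.3% to 38.2% (pseudocount 10) and 72.9% (pseudocount 0.1), and testing all 16069 genes to 25.4%. No paired analysis was possible because the series has a single group. No animal is named for a cell, and transcripts missed in a cell limit every share given.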
